A study of Mus musculus with 8 samples.

Results

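The genes described here are 31 genes of glycolysis and of the response to low oxygen run by the transcription factor HIF-1, measured in single blood and heart leukocytes of mice. They were chosen by symbol, as 2 glucose transporters, 3 hexokinases, 7 enzymes of upper glycolysis, 2 phosphofructokinase-2 enzymes, 5 enzymes of lower glycolysis, 4 genes of lactate and pyruvate handling, 3 genes of the HIF-1 system and 5 further HIF-1 targets. The 31 symbols matched 32 of the 32287 gene rows, because Aldoa stands on 2 rows, and the second of these held 0 UMIs. A UMI (unique molecular identifier) marks 1 captured transcript molecule, and all levels are counts per 1000000 UMIs (CPM) of the summed cells of 1 mouse, organ and cell class.

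The study asked how bone marrow from donors that had had a stroke shapes the myeloid cells of a recipient. Recipients of stroke-donor marrow (2 mice, here stroke replicates 1 and 2) and recipients of control-donor marrow (2 mice, here control replicates 1 and 2) were all of the Mx1Cre:c-Mybfl/fl strain. In that strain the interferon-inducible Mx1 promoter drives Cre and deletes the stem cell transcription factor c-Myb, so that donor marrow can take over. The deletion is thus one of the recipients, shared by those of both donor groups. Cells of the host that outlast it, tissue macrophages among them, were not separated from donor cells. Transcripts of fluorescent protein transgenes in the counts were left out here and not used to tell host from donor cells. CD45+CD11b+ cells of heart and blood were sorted, hashtagged by organ and pooled per animal into 1 library each. Barcodes were given to mice by their numeric suffix, read as the library number in the labels, so the donor group of every value below rests on that reading. Age, time after transplantation and donor strain are not given in the labels used here.

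Glycolysis splits glucose into pyruvate in the cytosol and yields ATP without oxygen, and myeloid cells, neutrophils above all, lean on it. When oxygen is scarce the prolyl hydroxylases encoded by Egln genes stop marking HIF-1α for decay, and HIF-1 then binds short DNA elements near genes for glucose uptake, glycolytic enzymes and lactate export. In macrophages and neutrophils inflammatory signals can also raise HIF-1α when oxygen is present.

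The 4 libraries held 10059365 to 16482961 gene UMIs, and 9654 of 11130 barcodes were kept, 4903 from heart and 4751 from blood. Clusters were named from fixed marker lists. Not every sorted cell was myeloid by its transcripts: 992 of the 1306 blood barcodes of stroke replicate 2 were B cell-like, against 59 to 120 B cell-like barcodes in the blood of each of the other 3 mice. Itgam, which encodes CD11b, stood at 55.8 to 72.8 CPM in heart and 35.6 to 76.9 CPM in blood B cell-like cells, and at 162 to 570 CPM in heart and 180 to 693 CPM in blood cells of the remaining classes. The libraries shared 5 to 9 barcode sequences with another library. Xist and Ddx3y set control replicate 1 apart as male-type, with 1 and 333 UMIs in heart cells against 3628 to 4448 and 0 to 2 UMIs in the other 3 mice. Sex was not given in the labels nor how the animals of a group were related, so p-values rest on these 4 animals. In tests with the mouse as a block they measure how a difference within a mouse varied between animals. For stroke against control they measure the spread within groups of 2 mice.

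Each gene had its own order over the cell classes, and neutrophils stood at the top for several of them. Slc2a3, a high-affinity glucose transporter, averaged 324 ± 97.7 CPM in heart neutrophil-like cells and 438 ± 87.2 CPM in blood neutrophil-like cells (SD, n = 4 mice), against 0.926 ± 1.13 CPM in blood nonclassical monocyte-like cells, its lowest class. Hk3, a myeloid hexokinase, averaged 96.5 ± 26.7 CPM in heart and 134 ± 31.5 CPM in blood neutrophil-like cells, again with overlap between mice. Bnip3, a mitophagy receptor, was highest at 46.5 ± 4.78 CPM in blood neutrophil-like cells, followed by 38.5 ± 23.2 CPM in heart neutrophil-like cells, and these neighbours overlapped between mice. Egln3, an oxygen-sensing prolyl hydroxylase, averaged 8.21 ± 1.1 CPM in heart and 20.4 ± 2.36 CPM in blood neutrophil-like cells, and blood was above heart in every mouse. These Egln3 values rest on few UMIs, 92 over all class sums, with under 3 in 41 of 52 sums. The gene was too low to test for heart against blood in any class. These levels across classes are a description without a test, since the classes come from clustering of the same cells, although the 31 genes were left out of the genes used for clustering.

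Other members peaked elsewhere. Hk2, the inducible hexokinase, was highest in heart dendritic cell-like cells at 128 ± 11 CPM, next to 95.7 ± 30.5 CPM in blood dendritic cell-like cells. Pfkp, the platelet-type phosphofructokinase of the committed glycolytic step, was highest in heart NK cell-like cells at 211 ± 44 CPM, with blood NK cell-like cells next at 186 ± 10.1 CPM. Tpi1, triose phosphate isomerase, was highest in heart macrophage-like cells at 128 ± 13.5 CPM, with blood nonclassical monocyte-like cells next at 108 ± 15.9 CPM. In all 3 cases the mice of the top class and of the next class overlapped. P4ha1, a collagen prolyl hydroxylase subunit and HIF-1 target, averaged 145 ± 17.3 CPM in heart and 129 ± 24.2 CPM in blood nonclassical monocyte-like cells, again with overlap, and 9.27 ± 10.6 CPM in blood neutrophil-like cells. Egln1, the main HIF prolyl hydroxylase, averaged 55.6 ± 12.7 CPM in heart and 98.3 ± 14.5 CPM in blood NK cell-like cells, its top class, and blood was above heart in all 4 mice, a difference that missed the threshold (log2 fold change -0.80, adjusted p = 0.0845).

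Summed over 16 glycolytic enzymes, heart macrophage-like cells held 1663 to 1942 CPM over the 4 mice, above the 1212 to 1556 CPM of heart B cell-like cells in every mouse and below the 2434 to 2578 CPM of heart classical monocyte-like cells. Neutrophil-like cells ranged widely, with 1955 to 3110 CPM in heart and 2152 to 3447 CPM in blood. The ranges of heart and blood overlapped in every class in which both organs were summed. Within mice, heart was above blood in all 4 mice in B cell-like cells (1556 against 1337 and 1212 against 1104 CPM in stroke, 1424 against 1146 and 1349 against 1110 CPM in control mice) and in nonclassical monocyte-like cells. In neutrophil-like cells heart was below blood in all 4 mice on plain CPM. The scaling used in the tests raises heart over blood by 0.21 log2 in that class, so this order depends on the scaling. These sums were not tested.

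**Figure D1:**
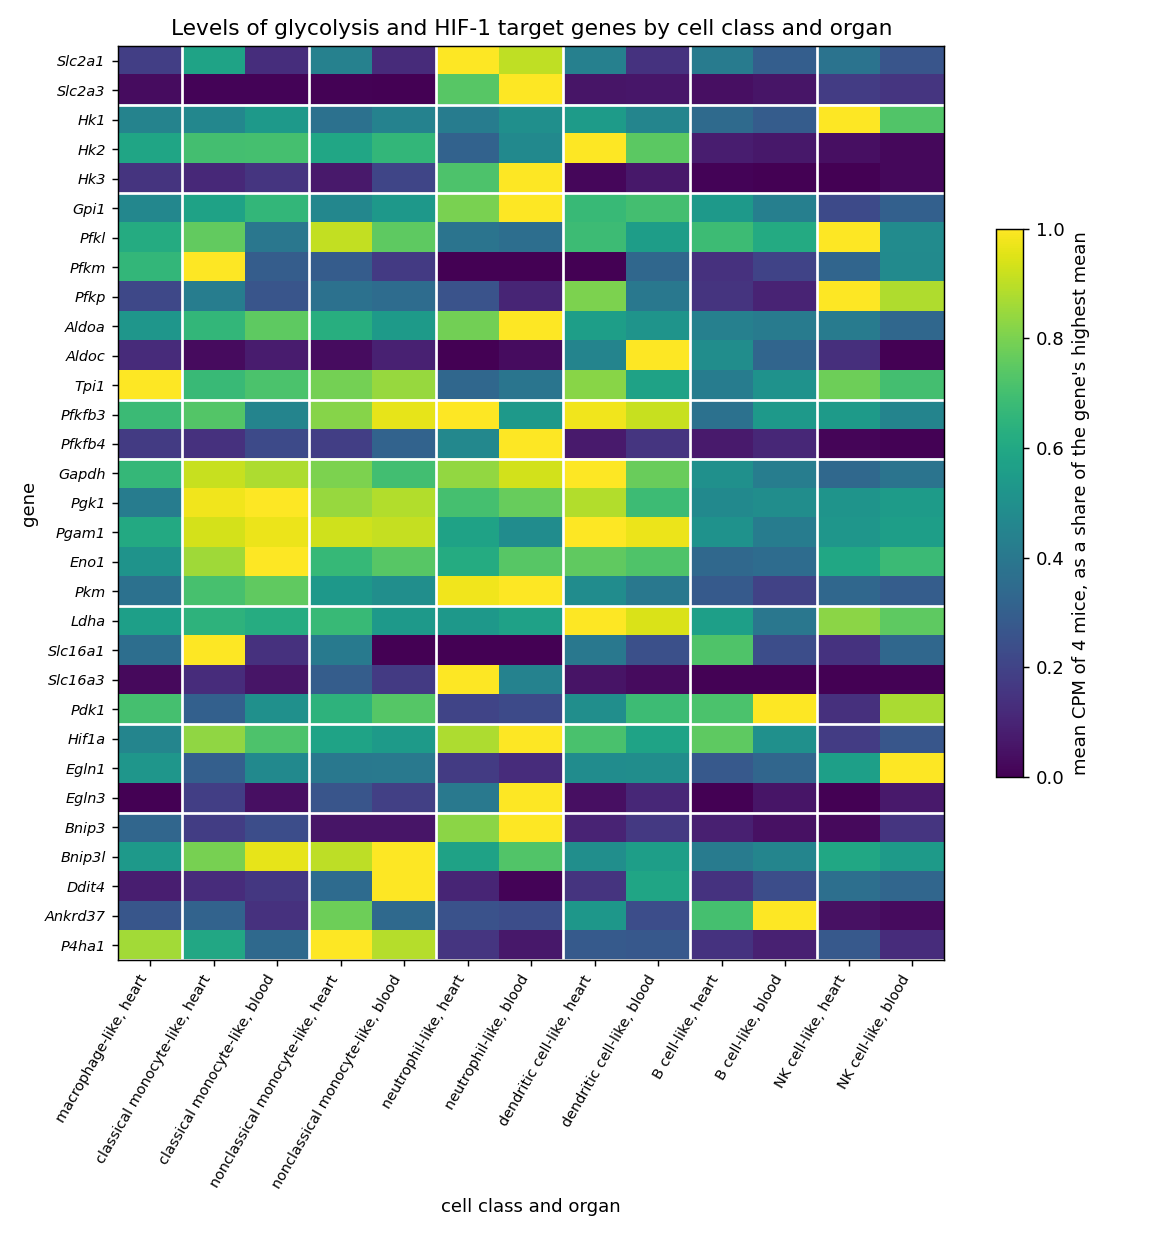
Mean CPM of 4 mice for each of the 31 genes (rows, grouped by role with white lines) in each cell class and organ (columns, heart left of blood), as a share of that gene's own highest class. Slc2a3, Hk3, Slc16a3, Pfkfb4 and Egln3 are brightest in neutrophil-like cells, Hk1 and Pfkp in NK cell-like cells, and Ddit4 in blood nonclassical monocyte-like cells.

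Heart cells were then compared with blood cells of the same class and animal. Of 27 members that passed the low-count filter in at least 1 of 6 classes, 10 passed the test in at least 1 (edgeR quasi-likelihood test with the mouse as block, Benjamini-Hochberg adjusted over all genes, threshold 0.05). These made 20 calls in 125 tests, 16 higher and 4 lower in heart, which is 16% of the members' tests, against 13.3% of the tests of all genes. Per class, 5 of 23 members passed in classical monocyte-like cells, all higher, where 18.6% of all genes did. In nonclassical monocyte-like cells 4 were higher and 2 lower of 22 (all genes 16.6%), in dendritic cell-like cells 2 were higher and 1 lower of 21 (all genes 6.39%), and in neutrophil-like cells 3 were higher and 1 lower of 21 (all genes 23.5%). In B cell-like cells 2 of 23 members were higher (all genes 8.76%). Of 15 members tested in NK cell-like cells none passed in edgeR or in DESeq2, and 1 had an unadjusted p under 0.05 in edgeR (all genes 7.72%). Over the 6 classes the members' share was near that of all genes, above it in dendritic cell-like and nonclassical monocyte-like cells and below it in neutrophil-like and NK cell-like cells, and these differences in share were not tested. The median log2 difference of the members lay between 0.02 and 0.21 in these classes, next to -0.02 to -0.01 for all genes.

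**Figure D2:**
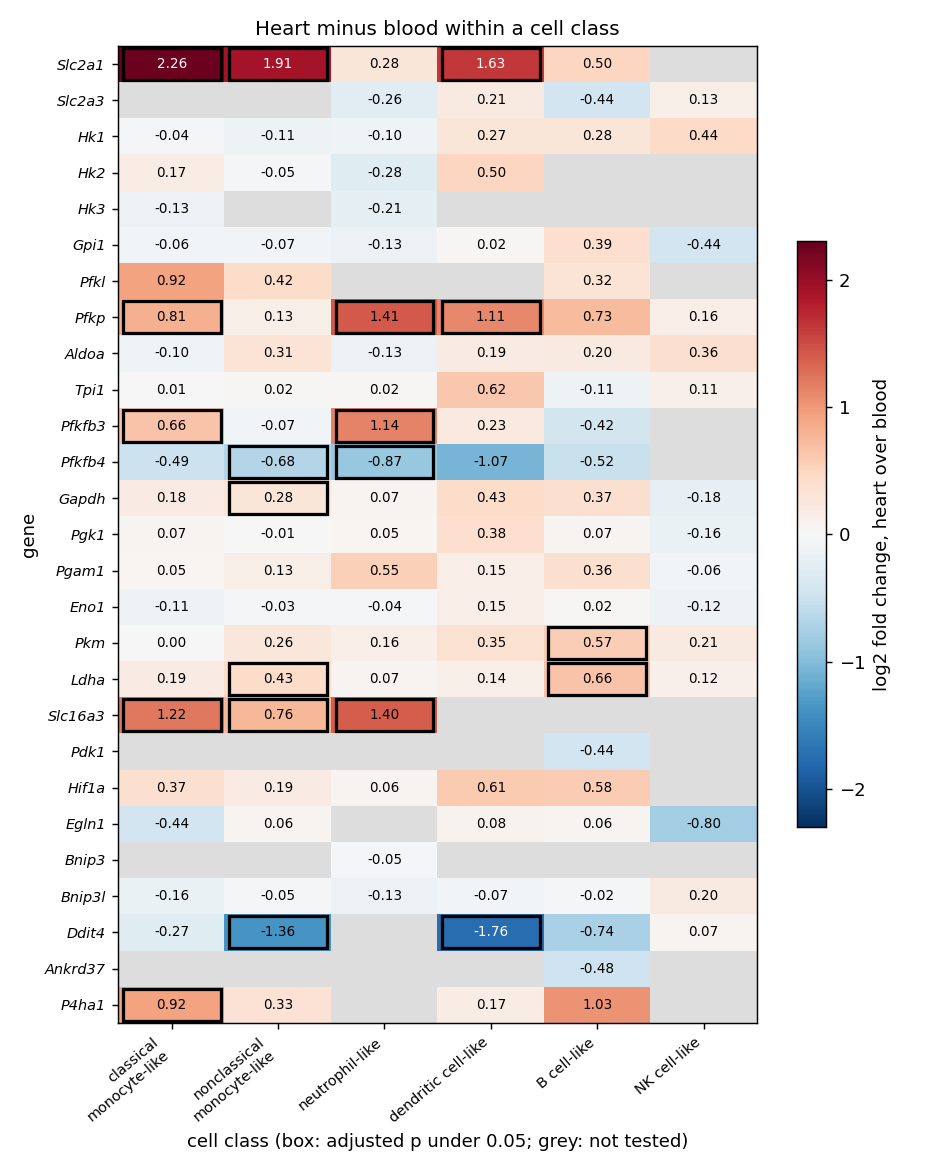
log2 fold change of heart over blood (colour and printed value) for 27 genes (rows) in 6 cell classes (columns), where black boxes mark an adjusted p under 0.05 and grey cells were not tested. Slc2a1 and Slc16a3 carry boxes on the higher side in 3 classes each, and Pfkfb4 and Ddit4 carry boxes on the lower side in 2 classes each.

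Fold changes were scaled by trimmed means, which placed the log2 value of heart over blood above that from plain CPM by 0.21 in neutrophil-like, 0.14 in B cell-like and 0.11 in classical monocyte-like, dendritic cell-like and nonclassical monocyte-like cells. In 3 of these classes heart and blood cells mostly fell into different clusters. Cluster 9 held 98.3% of heart neutrophil-like barcodes and cluster 2 held 99.7% of the blood ones. For classical monocyte-like cells these were cluster 11 with 88.9% in heart and cluster 3 with 95.8% in blood, and for nonclassical monocyte-like cells cluster 8 with 77.7% and cluster 6 with 99.4%. Both organs had the same main cluster in B cell-like (cluster 0, 60.9% of heart and 69.9% of blood barcodes), NK cell-like and dendritic cell-like cells. Genes of the stress and dissociation list, 19 in all, moved with the organ. In heart 16 of 17 tested were higher in classical and in nonclassical monocyte-like cells, 15 of 17 in neutrophil-like, 13 of 17 in dendritic cell-like, 14 of 16 in B cell-like and 8 of 12 in NK cell-like cells. Their summed level was 15586 to 18227 CPM in heart and 2762 to 3133 CPM in blood classical monocyte-like cells, 12686 to 13548 CPM in heart and 2541 to 3166 CPM in blood nonclassical monocyte-like cells, 20989 to 23410 CPM in heart and 5031 to 6758 CPM in blood neutrophil-like cells, 11225 to 13582 CPM in heart and 2458 to 3596 CPM in blood dendritic cell-like cells, 4603 to 5987 CPM in heart and 2317 to 3005 CPM in blood B cell-like cells, and 4497 to 7435 CPM in heart and 2430 to 2718 CPM in blood NK cell-like cells. Macrophage markers, 14 genes, summed to 4278 to 8138 CPM in heart and 2495 to 3993 CPM in blood classical monocyte-like cells, 5306 to 6518 CPM in heart and 5550 to 5682 CPM in blood nonclassical monocyte-like cells, 710 to 1174 CPM in heart and 411 to 496 CPM in blood neutrophil-like cells, 1138 to 2154 CPM in heart and 609 to 1457 CPM in blood dendritic cell-like cells, 267 to 305 CPM in heart and 177 to 478 CPM in blood B cell-like cells, and 32906 to 44743 CPM in heart macrophage-like cells. In heart NK cell-like cells they summed to 2365 and 3450 CPM in stroke and 56.0 and 92.9 CPM in control mice, against 43.6 to 209 CPM in blood. The part of these lists in the results was not tested.

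The sequences shown here lie before the RefSeq start of the 5 genes that were called in 1 direction in at least 2 classes and have 1 window in the promoter table. The hypoxia response element that HIF-1 binds has the core ACGTG or GCGTG, and capitals mark it on either strand. The sequences are the upstream part of RefSeq promoters (GRCm38.p6), 5′ to 3′ on the gene's strand and ended before the first annotated exon base: Slc2a1 at chr4:119108495-119108710 (plus strand), Slc16a3 at chr11:120948817-120949052 (plus), Pfkp at chr13:6648778-6649021 (minus), Ddit4 at chr10:59951835-59952020 (minus) and Pfkfb4 at chr9:108991652-108991777 (plus).
Slc2a1: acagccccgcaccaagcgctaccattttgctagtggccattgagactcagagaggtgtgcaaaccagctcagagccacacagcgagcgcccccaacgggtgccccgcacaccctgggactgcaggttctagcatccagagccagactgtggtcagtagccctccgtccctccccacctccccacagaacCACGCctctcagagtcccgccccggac
Slc16a3: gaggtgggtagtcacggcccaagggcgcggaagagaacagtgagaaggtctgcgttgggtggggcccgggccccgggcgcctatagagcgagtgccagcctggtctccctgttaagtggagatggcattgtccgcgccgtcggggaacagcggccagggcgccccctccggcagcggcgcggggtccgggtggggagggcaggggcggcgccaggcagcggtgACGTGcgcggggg
Pfkp: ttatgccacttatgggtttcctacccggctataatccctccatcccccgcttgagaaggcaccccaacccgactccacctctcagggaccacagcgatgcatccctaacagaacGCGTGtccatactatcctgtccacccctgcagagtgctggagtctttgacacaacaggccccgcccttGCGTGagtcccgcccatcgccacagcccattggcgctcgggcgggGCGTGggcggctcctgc
Ddit4: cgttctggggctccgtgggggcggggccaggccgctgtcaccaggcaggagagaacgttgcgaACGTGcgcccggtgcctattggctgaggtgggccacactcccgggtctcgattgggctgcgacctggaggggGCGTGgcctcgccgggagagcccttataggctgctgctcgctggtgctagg
Pfkfb4: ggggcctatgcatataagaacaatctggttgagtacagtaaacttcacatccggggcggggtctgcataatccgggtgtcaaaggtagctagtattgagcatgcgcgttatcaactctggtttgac
The Slc2a1, Slc16a3, Pfkp and Ddit4 stretches hold 1, 1, 3 and 2 cores, the nearest at 61, 27, 23 and 115 bases before the RefSeq start. The Pfkfb4 stretch, 126 bases long because it ends before the GENCODE gene start, holds none. The full 250 bases upstream of its RefSeq start do hold a core, which the shortened stretch leaves out. In the full 250 bases upstream, 35 of 42 windows of 29 members held a core, in 27 of the 29 genes, against 12679 of 32851 windows of all genes (38.6%). Many of the 31 genes are in the set because they are known HIF-1 targets, so this share is a description, and a match is not a binding site. Slc2a3 and Bnip3l had no window in the table. The Slc16a3 stretch lies inside the gene as GENCODE draws it, in the first intron of the transcript that starts earliest, while the other 4 end at the base before the GENCODE gene start.

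Slc2a1 encodes GLUT1, the basal glucose transporter of most cells (chromosome 4, 119108711 to 119137983, plus strand, GRCm38). In classical monocyte-like cells it stood at 82.5 and 68.4 CPM in heart cells of stroke mice and 61.4 and 59.1 CPM in heart cells of control mice, against 18.7 and 17.1 CPM in blood cells of stroke mice and 13.1 and 12.8 CPM in blood cells of control mice. Every heart value was above every blood value, in both donor groups. The log2 fold change was 2.26 (SE 0.23, adjusted p = 1.43e-08, higher in 4 of 4 mice). In nonclassical monocyte-like cells the heart held 46.5 and 62.0 CPM in stroke and 60.4 and 37.4 CPM in control mice, against 12.6 and 15.7 CPM in blood of stroke and 16.1 and 13.4 CPM in blood of control mice. Here too the organs did not overlap, with a log2 fold change of 1.91 (SE 0.30, adjusted p = 2.58e-07). The blood values are low, and a single barcode held up to 33.3% of the Slc2a1 UMIs of a blood sum.

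In dendritic cell-like cells Slc2a1 was 60.8 and 61.0 CPM in heart of stroke and 33.4 and 49.0 CPM in heart of control mice, against 35.0 and 10.0 CPM in blood of stroke and 14.8 and 9.49 CPM in blood of control mice. Heart was above blood within each mouse, although the blood of stroke replicate 1 exceeded the heart of control replicate 1. The log2 fold change was 1.63 (SE 0.36, adjusted p = 0.0119), and leaving out control replicate 1 or 2 gave an adjusted p of 0.055 or 0.102, subtracting the top barcode of each sum 0.0504 and DESeq2 0.103. In neutrophil-like cells, where Slc2a1 was highest, it was 97.5 and 123 CPM in heart of stroke and 83.5 and 165 CPM in heart of control mice, against 116 and 90.2 CPM in blood of stroke and 77.9 and 141 CPM in blood of control mice. The organs overlapped there (log2 fold change 0.28) and the test was not passed. Heart macrophage-like cells, which had no blood counterpart, held 15.8 to 26.3 CPM, near blood monocyte-like cells and below heart classical monocyte-like cells in every mouse.

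Slc16a3 encodes MCT4, the lactate exporter of glycolytic cells (chromosome 11, 120948480 to 120960868, plus strand). In neutrophil-like cells it was 435 and 521 CPM in heart of stroke and 487 and 545 CPM in heart of control mice, against 237 and 203 CPM in blood of stroke and 132 and 310 CPM in blood of control mice. All heart values were above all blood values (log2 fold change 1.4, SE 0.18, adjusted p = 3e-05). In classical monocyte-like cells it was 55.0 and 76.0 CPM in heart of stroke and 42.5 and 80.2 CPM in heart of control mice, against 31.7 and 31.3 CPM in blood of stroke and 16.4 and 34.1 CPM in blood of control mice. The organs again did not overlap (log2 fold change 1.22, SE 0.21, adjusted p = 5.08e-05). In nonclassical monocyte-like cells it was 128 and 216 CPM in heart of stroke and 118 and 123 CPM in heart of control mice, against 93.5 and 83.8 CPM in blood of stroke and 64.6 and 99.2 CPM in blood of control mice. Heart was again above blood in all mice, with stroke replicate 2 far above the others (log2 fold change 0.76, SE 0.16, adjusted p = 0.000108). Heart macrophage-like cells held far less, 10.1 to 16.5 CPM. Ldha, which turns pyruvate into lactate, was 163 and 139 CPM in heart B cell-like cells of stroke and 169 and 143 CPM in those of control mice, against 103 and 96.7 CPM in blood of stroke and 99.0 and 128 CPM in blood of control mice. No blood value reached a heart value (log2 fold change 0.66, SE 0.14, adjusted p = 0.00565, 0.0591 without control replicate 1). In nonclassical monocyte-like cells Ldha was also higher in heart in each mouse (log2 fold change 0.43, SE 0.12, adjusted p = 0.00814), although the values of different mice overlapped. Ldha missed the threshold there when totals alone set the scale (0.31, adjusted p = 0.0711), with control replicate 2 left out (adjusted p = 0.0619), without the mouse as a block (adjusted p = 0.149) and in DESeq2 (adjusted p = 0.339). Pdk1, which shuts off pyruvate entry into mitochondria, was tested in B cell-like cells alone and was not called, and Slc16a1, the other lactate carrier, was too low to test in a class.

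**Figure D3:**
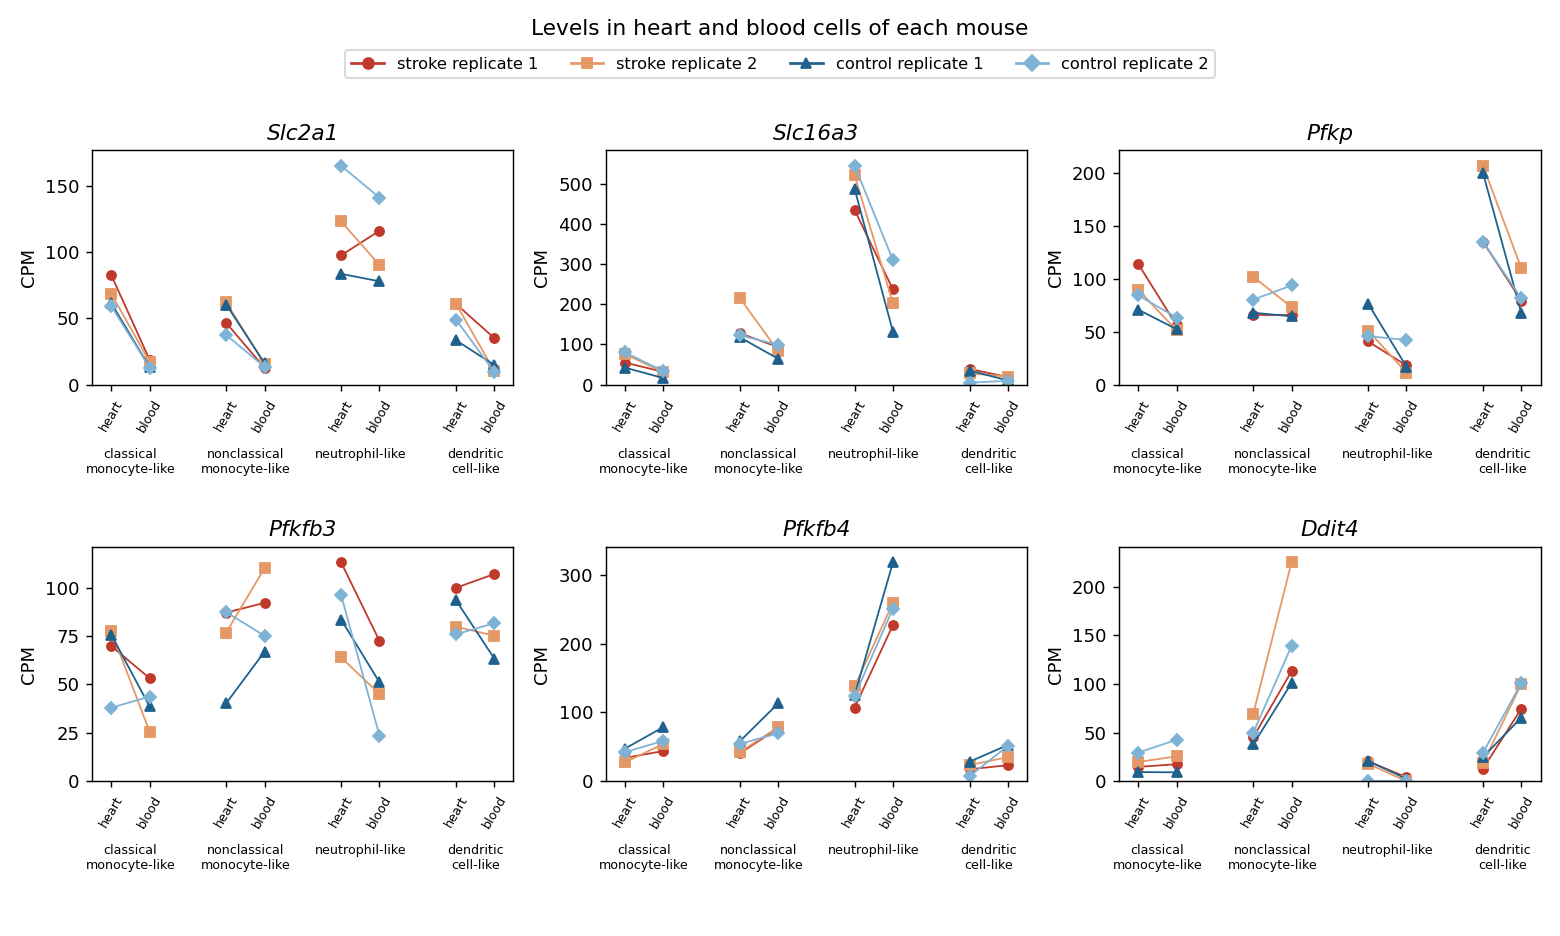
CPM of 6 genes in heart (left) and blood (right) cells of 4 cell classes, with 1 line per mouse (red and orange for stroke, blues for control). The lines of Slc2a1 and Slc16a3 run down to blood in classical and nonclassical monocyte-like cells of every mouse, and those of Pfkfb4 and Ddit4 run up to blood in nonclassical monocyte-like cells of every mouse.

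The genes around the phosphofructokinase step split by direction. Pfkp (chromosome 13, 6579768 to 6648777, minus strand) was 114 and 89.7 CPM in heart classical monocyte-like cells of stroke and 70.9 and 84.4 CPM in those of control mice, against 56.0 and 51.3 CPM in blood of stroke and 52.4 and 63.4 CPM in blood of control mice. The organs did not overlap (log2 fold change 0.81, SE 0.17, adjusted p = 0.000808). In dendritic cell-like cells it was 135 and 207 CPM in heart of stroke and 200 and 135 CPM in heart of control mice, against 79.3 and 110 CPM in blood of stroke and 67.5 and 81.6 CPM in blood of control mice, again without overlap. That log2 fold change was 1.11 (SE 0.21, adjusted p = 0.0046, 0.0979 without control replicate 1). In neutrophil-like cells Pfkp was 40.8 and 51.1 CPM in heart of stroke and 76.5 and 45.8 CPM in heart of control mice, against 18.1 and 11.3 CPM in blood of stroke and 17.0 and 42.3 CPM in blood of control mice. The blood of control replicate 2 overlapped the heart of other mice, and the blood sums rest on 13 and 1 UMIs in stroke and 14 and 18 UMIs in control mice (log2 fold change 1.41, SE 0.39, adjusted p = 0.0149, 0.0678 without stroke replicate 1 and 0.0822 without control replicate 1). In NK cell-like cells, its top class, Pfkp was not called (log2 fold change 0.16).

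Pfkfb3 and Pfkfb4 make and break fructose 2,6-bisphosphate, the activator of phosphofructokinase, and they moved in opposite directions in neutrophil-like cells. Pfkfb3 (chromosome 2, 11471433 to 11554077, minus strand) was 113 and 63.9 CPM in heart of stroke and 83.5 and 96.2 CPM in heart of control mice, against 72.5 and 45.1 CPM in blood of stroke and 51.1 and 23.5 CPM in blood of control mice. Heart was above blood within each mouse (log2 fold change 1.14, SE 0.27, adjusted p = 0.00635). A single barcode held up to 33.3% of the Pfkfb3 UMIs of a heart sum and up to 25% of those of a blood sum. Pfkfb4 (chromosome 9, 108991778 to 109032228, plus strand) was 107 and 138 CPM in heart of stroke and 125 and 124 CPM in heart of control mice, against 227 and 259 CPM in blood of stroke and 318 and 251 CPM in blood of control mice. Every heart value was below every blood value (log2 fold change -0.87, SE 0.16, adjusted p = 0.000999). In nonclassical monocyte-like cells Pfkfb4 was 40.6 and 42.1 CPM in heart of stroke and 57.9 and 54.1 CPM in heart of control mice, against 76.8 and 78.6 CPM in blood of stroke and 113 and 69.7 CPM in blood of control mice. This was lower in heart without overlap (log2 fold change -0.68, SE 0.20, adjusted p = 0.00926), and the adjusted p was 0.0974 without stroke replicate 1, 0.0791 without control replicate 1, 0.0517 with no filter on low counts and 0.293 in DESeq2. Pfkfb4 was negative in all 5 classes in which it was tested, from -1.07 to -0.49. Pfkfb3 in classical monocyte-like cells was higher in 3 of 4 mice (log2 fold change 0.66, SE 0.22, adjusted p = 0.0355), and this call was lost in 9 of 14 alternatives, among them those without stroke replicate 1 (0.0518), without stroke replicate 2 (0.228) and without control replicate 1 (0.118).

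The hexokinases and most enzymes of the chain made no call. Hk1, Hk2, Hk3, Gpi1 (glucose phosphate isomerase), Aldoa (aldolase A), Tpi1, Pgk1 (phosphoglycerate kinase), Pgam1 (phosphoglycerate mutase) and Eno1 (enolase) passed the test in none of the classes in which they were tested, by edgeR. Under alternatives, Aldoa was called in nonclassical monocyte-like cells in 4 and Hk3 in the same class in 3, Gpi1 in B cell-like cells in 1 and Tpi1 in dendritic cell-like cells in 1. Gapdh, which oxidises glyceraldehyde phosphate, was 649 and 741 CPM in heart nonclassical monocyte-like cells of stroke and 594 and 546 CPM in those of control mice, against 592 and 592 CPM in blood of stroke and 484 and 534 CPM in blood of control mice. Each mouse was higher in heart, while values of different mice overlapped (log2 fold change 0.28, SE 0.08, adjusted p = 0.00669), but it was 0.17 with an adjusted p of 0.136 when totals alone set the scale, and the adjusted p was 0.091 without the mouse as a block and 0.226 in DESeq2. Pkm, pyruvate kinase, was 171 and 115 CPM in heart B cell-like cells of stroke and 168 and 119 CPM in those of control mice, against 101 and 102 CPM in blood of stroke and 124 and 75.5 CPM in blood of control mice. The organs overlapped between mice (log2 fold change 0.57, SE 0.15, adjusted p = 0.0209), and the adjusted p was 0.118 without stroke replicate 1, 0.0991 without control replicate 1, 0.0956 without control replicate 2, 0.0687 when totals alone set the scale and 0.115 in DESeq2. Processed copies of several of these enzymes exist in the mouse genome, and reads that match a copy equally well may be lost or shared.

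Among the HIF-1 system and its other targets, Ddit4 had the lowest log2 fold change of the 125 tests in classes. Ddit4 (chromosome 10, 59949669 to 59951834, minus strand) encodes REDD1, a stress-induced inhibitor of mTORC1 that also responds to glucocorticoids. In nonclassical monocyte-like cells it was 45.3 and 69.4 CPM in heart of stroke and 37.8 and 49.9 CPM in heart of control mice, against 113 and 225 CPM in blood of stroke and 101 and 139 CPM in blood of control mice. Heart stayed under blood for all pairs of mice (log2 fold change -1.36, SE 0.18, adjusted p = 1.04e-09). In dendritic cell-like cells it was 13 and 18.8 CPM in heart of stroke and 25.0 and 29.4 CPM in heart of control mice, against 74.7 and 100 CPM in blood of stroke and 65.4 and 101 CPM in blood of control mice. The organs did not overlap (log2 fold change -1.76, SE 0.29, adjusted p = 0.00156). The heart sums are low in this class, and a single barcode held up to 50% of the Ddit4 UMIs of a heart sum. P4ha1 went the other way in classical monocyte-like cells, with 80.4 and 53.2 CPM in heart of stroke and 113 and 101 CPM in heart of control mice, against 45.9 and 45.6 CPM in blood of stroke and 47.8 and 59.1 CPM in blood of control mice. Only the blood of control replicate 2 exceeded a heart value, that of stroke replicate 2 (log2 fold change 0.92, SE 0.18, adjusted p = 0.000388). With organs taken from the hashtag ratio the call was lost (0.56, adjusted p = 0.0562). Hif1a itself, the oxygen-regulated subunit, had log2 fold changes of 0.06 to 0.61 in 5 classes and passed in none by edgeR. It was called in 4 of 14 alternatives in B cell-like, in 4 in classical monocyte-like and in 1 in dendritic cell-like cells. By edgeR neither Egln1 nor the mitophagy receptor Bnip3l passed in a class.

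In sums over all cells of an organ, 2 of 31 members passed, against 15.2% of all genes. P4ha1 was higher in heart (log2 fold change 1.34, SE 0.23, adjusted p = 0.019) and Ddit4 was lower (log2 fold change -1.06, SE 0.14, adjusted p = 0.00904). In such sums fewer cells of a type and less RNA per cell cannot be told apart. Both calls depended on single animals: P4ha1 had an adjusted p of 0.102 without stroke replicate 1, 0.0649 without control replicate 1 and 0.0694 without control replicate 2, and Ddit4 had 0.0797 without stroke replicate 1 and 0.0684 without control replicate 2. The number of calls depended on stroke replicate 2, whose blood held 992 B cell-like of 1306 barcodes. Without that mouse 16 of 30 members passed, 6 higher and 10 lower in heart. The part of its blood composition in this was not tested. Slc2a1 was 44.3 and 41.3 CPM in heart of stroke and 39.8 and 39.0 CPM in heart of control mice, against 33.0 and 39.3 CPM in blood of stroke and 32.3 and 28.4 CPM in blood of control mice, so that the difference inside monocyte-like classes was much less visible in whole organs.

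Other genes of the oxygen response and of sugar use, outside the 31, were read from fixed lists. Of the list of other HIF genes and targets, 3 of 11 tested were higher in heart classical monocyte-like cells, 2 of 9 in nonclassical monocyte-like cells, 1 of 11 in dendritic cell-like cells, 1 of 10 in B cell-like cells, 1 of 8 in NK cell-like cells and 0 of 7 in neutrophil-like cells. Of all genes 12.9%, 10.2%, 5.44%, 5.36%, 5.47% and 15.5% were higher in these classes, in the same order. None of the list was lower in edgeR. Bhlhe40, a transcriptional repressor, was called in 4 classes, with log2 fold changes from 1.43 in nonclassical monocyte-like to 3.25 in classical monocyte-like cells. Arnt, the partner subunit of HIF-1α, was higher in classical monocyte-like (0.89, SE 0.19, adjusted p = 0.000993) and B cell-like cells (0.75, SE 0.17, adjusted p = 0.0076). Of the list of other glycolysis and pyruvate genes, Eno3 was higher in heart classical monocyte-like cells (1.39, SE 0.29, adjusted p = 0.000813). Mpc1 was higher in heart B cell-like cells (0.53, SE 0.15, adjusted p = 0.0294). No other gene of that list was called in a class by edgeR. Of the pentose phosphate list 1 of 6 was lower in heart in classical and 1 of 6 in nonclassical monocyte-like cells, Taldo1 (-0.24) and Pgls (-0.47), where 5.77% and 6.4% of all genes were lower. Txnip, a brake on glucose uptake that is held in the stress and dissociation list, was lower in heart in 5 of 6 classes (-2.02 to -0.72) and not called in NK cell-like cells.

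Heart macrophage-like cells were divided by the markers of resident macrophages. Resident-type cells held at least 1 UMI of Lyve1, Timd4 or Folr2 (121 to 521 barcodes per mouse) and were compared with the macrophage-like cells that held none (78 to 207 per mouse), with the 3 genes left out. Of 24 members tested 5 were lower in resident-type cells and 0 were higher, which is 20.8%, against 17.6% of all genes (9.8% lower). Of 9 members with an unadjusted p under 0.05 in edgeR, Bnip3l alone was positive (log2 fold change 0.26, adjusted p = 0.125), and DESeq2 called 2 members. The median log2 difference of the 24 was -0.20, against 0.00 for all 7681 genes, and 17 of 24 were negative, among them all 10 tested enzymes of upper and lower glycolysis.

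Gapdh was 550 and 504 CPM in resident-type cells of stroke and 436 and 417 CPM in those of control mice, against 674 and 634 CPM in the other macrophage-like cells of stroke and 699 and 536 CPM in those of control mice. Resident-type cells were lower in each mouse (log2 fold change -0.44, SE 0.07, adjusted p = 2.06e-05). Aldoa was 196 and 169 CPM in resident-type cells of stroke and 161 and 177 CPM in those of control mice, against 239 and 221 CPM in the others of stroke and 227 and 233 CPM in the others of control mice. The subsets did not overlap (log2 fold change -0.42, SE 0.09, adjusted p = 0.000595). Pgk1 was 57.9 and 52.4 CPM in resident-type cells of stroke and 40.8 and 50.1 CPM in those of control mice, against 67.0 and 65.9 CPM in the others of stroke and 94.8 and 62.2 CPM in the others of control mice. It also did not overlap (log2 fold change -0.47, SE 0.15, adjusted p = 0.0228), but the value was -0.32 (adjusted p = 0.171) without control replicate 1 and -0.51 (adjusted p = 0.0625) without control replicate 2, and the call was kept in 6 of 12 alternatives.

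Of the transporters, Slc16a3 and Slc2a3 were called lower as well, while Slc2a1 was not called. Slc2a1 averaged 19.7 ± 4.99 CPM in resident-type and 26.5 ± 6.51 CPM in the other macrophage-like cells. Slc16a3 was 13 and 15.7 CPM in resident-type cells of stroke and 6.81 and 8.98 CPM in those of control mice, against 25.9 and 18.8 CPM in the others of stroke and 15.4 and 16.3 CPM in the others of control mice. Each mouse was lower in resident-type cells (log2 fold change -0.80, SE 0.27, adjusted p = 0.0356), kept in 4 of 12 alternatives, with adjusted p-values of 0.306 without stroke replicate 1, 0.0714 without control replicate 1 and 0.103 without control replicate 2. Slc2a3 was 7.19 and 19.5 CPM in resident-type cells of stroke and 15 and 7.56 CPM in those of control mice, against 25.9 and 20.2 CPM in the others of stroke and 11 and 17.8 CPM in the others of control mice. Control replicate 1 ran the other way, and this call (log2 fold change -0.85, SE 0.31, adjusted p = 0.0496) was lost without stroke replicate 1 (-0.37, adjusted p = 0.625) and without control replicate 2 (-0.74, adjusted p = 0.202), and was kept in 5 of 12 alternatives. Hif1a (log2 fold change 0.09), Hk2 (0.06), P4ha1 (-0.06) and Ldha (-0.01) were not called.

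**Figure D4:**
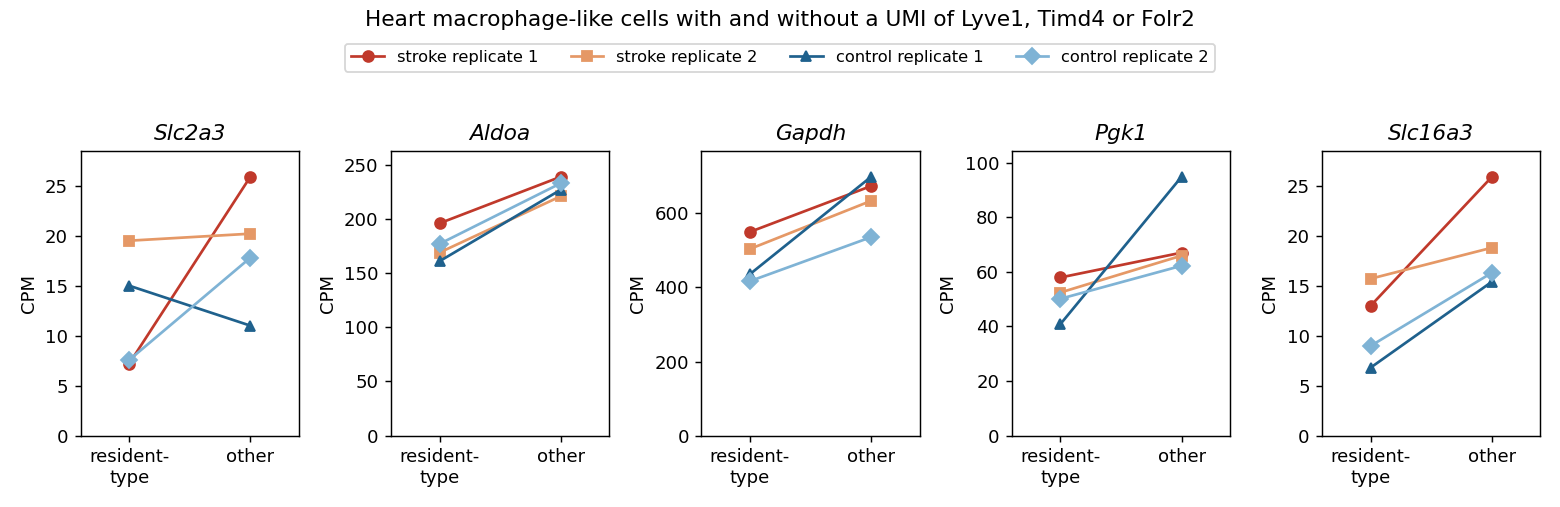
CPM of the 5 called genes in resident-type (left) and other (right) heart macrophage-like cells, with 1 line per mouse (red and orange for stroke, blues for control). The lines run up to the other cells in all 4 mice for Aldoa, Gapdh, Pgk1 and Slc16a3, and in 3 of 4 mice for Slc2a3.

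Several other values moved with this division. Resident-type cells had median UMI counts of 4810.5 to 5730, against 3656 to 4925.5 in the others, and were deeper in each mouse. Macrophage markers summed to 38253 to 47579 CPM in resident-type and 24248 to 35856 CPM in other cells. That list includes Lyve1, Timd4 and Folr2, which the other cells lack by definition, so part of this gap was set by the division. Classical monocyte markers, 10 genes with F13a1 among them, summed to 3461 to 4397 and 854 to 1548 CPM, and platelet genes, 7 with Pf4 among them, to 2825 to 3625 and 1206 to 1576 CPM. Dendritic cell markers, 10 genes, summed to 2438 to 3219 CPM in resident-type and 6350 to 7622 CPM in other cells, stress and dissociation genes to 14645 to 16867 and 17356 to 19823 CPM, and cardiomyocyte markers to 94.8 to 149 and 164 to 265 CPM. Erythroid markers reached 6764 CPM in the other cells of stroke replicate 2, against 8.65 CPM or less in the other cells of the remaining mice. Their part in the lower glycolytic levels was not tested. Outside the 31 genes, Tkt (transketolase, log2 fold change -0.83), Mif (-0.59), Eno3 (-0.71), Taldo1 (-0.38) and Cited2 (-0.38) were also lower in resident-type cells.

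Stroke-donor and control-donor marrow were compared within each organ and class, with 2 mice per group. No member passed in 333 tests over 15 comparisons in edgeR or in DESeq2, 29 had an unadjusted p under 0.05 in edgeR, and the smallest adjusted p was 0.305. Calls appeared without stroke replicate 1 (19 calls of 16 members, 14 of them in blood sums over all cells), without control replicate 1 (4, all Eno1), without control replicate 2 (1, Eno1) and with no filter on low counts (5 calls of 4 members). Over all genes 45 of 101546 tests passed (0.0443%). In heart macrophage-like cells 0 of 10446 genes and 0 of 29 members passed (0.0%), with 4 members at an unadjusted p under 0.05. Slc16a3 was 16.1 and 16.5 CPM in heart macrophage-like cells of stroke mice and 10.1 and 10.7 CPM in those of control mice, without overlap (log2 fold change 0.64, SE 0.26, adjusted p = 1). Gapdh had a log2 fold change of 0.72 in heart dendritic cell-like cells (SE 0.24, adjusted p = 0.305), and Pfkl, the liver-type phosphofructokinase, was at -1.68 in heart nonclassical monocyte-like cells (SE 0.45, adjusted p = 0.526), neither of them a call. In those heart dendritic cell-like sums neutrophil markers stood at 1446 and 939 CPM in stroke and 179 and 145 CPM in control mice, and macrophage markers at 2154 and 2056 CPM in stroke and 1138 and 1274 CPM in control mice, and their part in the Gapdh value was not tested. A difference of heart minus blood that depended on the donor was found for none of the members in 162 tests over 7 comparisons by edgeR (11 with an unadjusted p under 0.05, smallest adjusted p 0.742), next to 33 of 49795 tests of all genes (0.0663%).

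Eno1 (enolase 1, which makes phosphoenolpyruvate, chromosome 4, 150236721 to 150248879, plus strand) was the member with most unadjusted p-values under 0.05, 9 of its 13 class and organ sums. It was 110 and 53.1 CPM in heart macrophage-like cells of stroke mice, against 141 and 160 CPM in those of control mice. The groups did not overlap (log2 fold change -0.86, SE 0.26, adjusted p = 1). This value was called with no filter on low counts (-0.85, adjusted p = 0.00021), without stroke replicate 1 (-1.49, adjusted p = 0.0128), without control replicate 1 (-0.96, adjusted p = 0.000116) and without control replicate 2 (-0.74, adjusted p = 0.023), but not without stroke replicate 2 (-0.45, adjusted p = 0.999). In heart neutrophil-like cells it was 95.2 and 69.0 CPM in stroke mice, against 125 and 266 CPM in control mice (log2 fold change -1.31, SE 0.39, adjusted p = 0.36). All 13 fitted values were negative, from -1.31 to -0.15, but both stroke mice were below both control mice in 7 of 13 sums. Stroke replicate 2 was the lowest mouse in 13 of 13 sums and control replicate 2 the highest in 11 of 13, so that 2 of the 4 animals set the pattern. Stroke replicate 1 was below control replicate 1 in 8 of 13. Without control replicate 2 the values ran from -0.90 to 0.47, 10 of 13 negative with 1 called, and without stroke replicate 2 from -1.11 to 0.42, 10 of 13 negative with 0 called. Without stroke replicate 1 they ran from -1.73 to -0.82 with 3 called, and without control replicate 1 from -1.77 to -0.31 with 4 called. The sums of 1 mouse come from 1 library and are not independent. Eno1b, a retrotransposed copy of Eno1, held 3 to 17 UMIs per organ and mouse, against 353 to 1100 for Eno1. The other 15 enzymes summed to 1745 and 1610 CPM in heart macrophage-like cells of stroke and 1801 and 1528 CPM in those of control mice, with overlap.

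**Figure D5:**
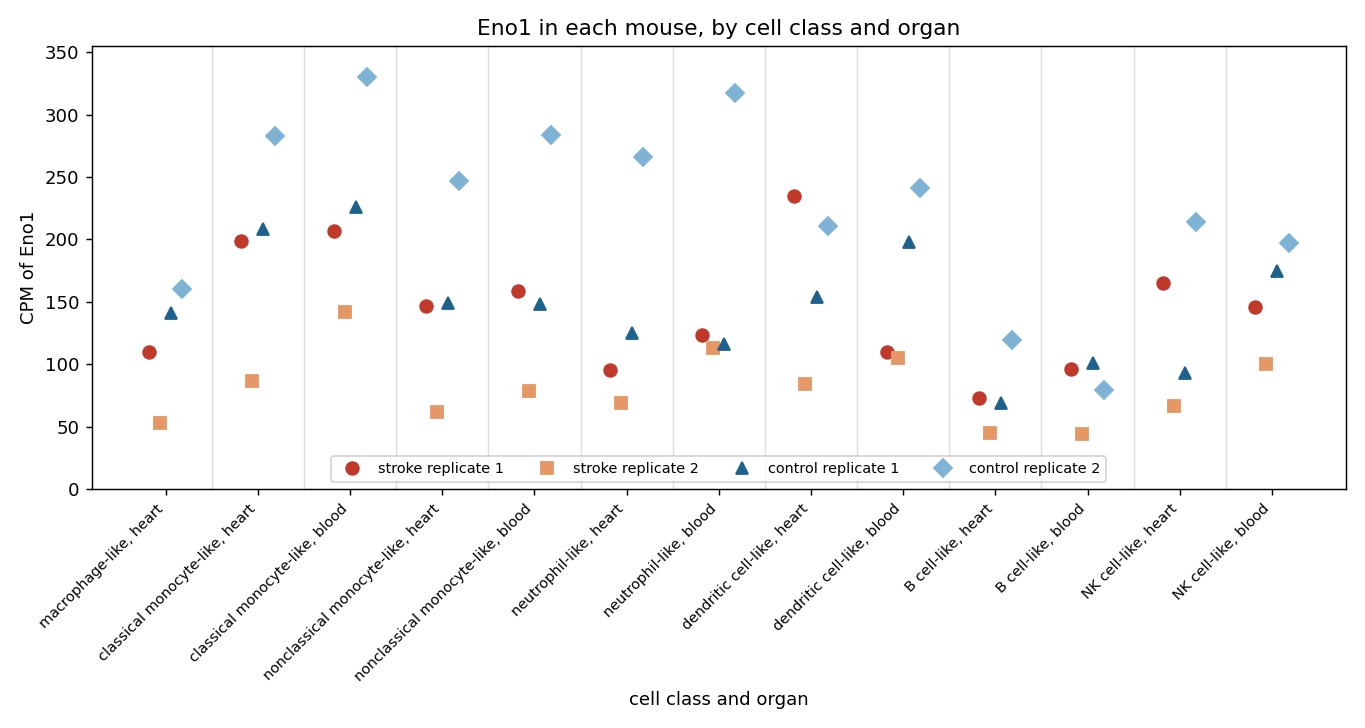
CPM of Eno1 in each mouse (red and orange for stroke, blues for control) for 13 class and organ sums, where each point is 1 sum of 1 mouse. Stroke replicate 2 is lowest in 13 of 13 sums and control replicate 2 is highest in 11 of 13, while stroke replicate 1 and control replicate 1 lie close together in most.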

How the data were processed

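Single-cell 3′ gene expression and hashtag libraries of 4 mice were read. The authors deposited UMI counts per gene and barcode, aligned to mm10 with Cell Ranger 7.1.0 per the submitters' processing notes. The barcode suffix was taken as the mouse, in the order the labels number the libraries, which the sources used here do not state outright. Organs were called from the hashtag counts deposited by the authors with HTODemux (Seurat 5.3.0). Barcodes with at least 200 genes and at most 10 percent mitochondrial UMIs were kept, hashtag doublets (8.57% of barcodes) and Scrublet calls (2.08%) were removed, and 9654 of 11130 barcodes remained. Scrublet set its own threshold in each library. It called 39 and 180 barcodes in control replicates 1 and 2, at thresholds of 0.2553 and 0.1482. In stroke replicates 1 and 2 it called 9 and 3, at 0.5228 and 0.5141. Scrublet thus removed fewer barcodes from the stroke libraries. The part of this in the marker sums of heart NK cell-like and dendritic cell-like cells was not tested. Leiden clustering (scanpy 1.11.5, leidenalg 0.10.2, resolution 1.0, 2000 variable genes without the 31 genes) gave 20 clusters, of which 2 with 196 barcodes, 179 from heart, stayed unnamed. Class names are rebuilt from markers, and the authors' own annotation was not used here.

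Sums of counts over the cells of a mouse, organ and class were used where each held at least 20 barcodes. The smallest sum used was heart NK cell-like cells of control replicate 1, with 29 barcodes and 107203 UMIs. edgeR 4.0.16 (quasi-likelihood test, TMM scaling, filterByExpr, Benjamini-Hochberg threshold 0.05) in R 4.3.3 tested each sum, with the mouse as a block for heart against blood and for the macrophage division, since both sums come from the same animal and library. DESeq2 1.42.0 was an alternative, next to other scalings, no filter on low counts, stricter cell filters, finer clustering, other doublet and organ calls, subtraction of the top barcode of each sum and leaving out each mouse. Total scaling alone was added after seeing the data. The test was also run on simulated counts with 200 genes changed by a fold of 2, where a false call is an unchanged gene that passed. For heart against blood in classical monocyte-like cells (6243 genes) it recovered 79.5% of them, with 7 false calls. In neutrophil-like cells (3930 genes) it recovered 53.5%, with 0 false calls. For stroke against control in heart macrophage-like cells (10446 genes) it recovered 56.5%, with 5 false calls. For the macrophage division (7672 genes) it recovered 86.5%, with 10 false calls. The simulated counts came from a single profile common to all sums, with the same spread for every gene. Apart from the changed genes they held no difference between organs, classes of donor or mice. The measured counts differ in these points, so the shares do not give the power of the tests on them.

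Replicate numbers were checked for pairing across the donor groups, and the same-number correlation of deviations was -0.34 to 0.12 over 15 sums, above 0.1 in 1 of them, so the numbers were not taken to pair mice. The 31 genes and the lists were chosen with earlier results of these data known. Genes outside the 31 were named when called in most classes, then by log2 fold change. Gene positions are those of GENCODE vM21 (GRCm38), and promoters are from RefSeq (GRCm38.p6). Intervals of single sums are not given, and low sums are limited by their UMI counts.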

Additional observations from a re-analysis of the deposited data

Results flagged for a closer look

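Of 67 sets of 4 mouse values examined, 5 held 1 mouse far from the other 3, and chance gives about 1 in 20 such sets. Eno1 in blood neutrophil-like cells stood at 317 CPM in control replicate 2, against 113 to 123 CPM in the other mice. Slc16a3 in heart nonclassical monocyte-like cells stood at 216 CPM in stroke replicate 2, against 118 to 128 CPM in the others. Slc16a3 in blood classical monocyte-like cells stood at 16.4 CPM in control replicate 1, against 31.3 to 34.1 CPM in the others. P4ha1 in blood classical monocyte-like cells stood at 59.1 CPM in control replicate 2, against 45.6 to 47.8 CPM in the others. Pgk1 in heart macrophage-like cells without a UMI of Lyve1, Timd4 or Folr2 stood at 94.8 CPM in control replicate 1, against 62.2 to 67.0 CPM in the others. In none of 29 differences between heart and blood examined by donor did both stroke mice have the opposite sign to both control mice. All but those of Eno1 had passed the heart against blood test over all 4 mice, which made such a split unlikely beforehand.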

How the results depend on the processing

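Of the 20 calls of the 31 genes for heart against blood within classes, 10 held under all 14 alternatives: Slc2a1 in classical and nonclassical monocyte-like cells, Slc16a3 in its 3 classes, Pfkp in classical monocyte-like cells, Ddit4 in its 2 classes and Pfkfb3 and Pfkfb4 in neutrophil-like cells. For the macrophage division Gapdh and Aldoa held under all 12. With the 2 calls of all-cell sums, heart against blood gave 22 calls of members, 16 to 44 when 1 mouse was left out. Of the 44 calls without stroke replicate 2, 28 were in classes and 16 in all-cell sums. Over all genes 6081 calls became 3246 to 9167. For the macrophage division 5 members were called, 2 in DESeq2, 3 with hashtag doublets alone removed, 3 with no filter on low counts and 3 to 6 when 1 mouse was left out, and 1352 genes became 692 in DESeq2. For stroke against control marrow 0 calls of members became 5 with no filter on low counts and 0 to 19 when 1 mouse was left out (19 without stroke replicate 1), and 45 calls of all genes became 88 in DESeq2, 1231 with no filter, 75 with organs from the hashtag ratio, 10 with stricter cell filters and 200 to 3953 when 1 mouse was left out. For the interaction 0 calls of members became 0 to 14 and 33 calls of all genes 27 to 4013 when 1 mouse was left out. Leaving out a mouse leaves a donor group with 1 animal, which is then assumed to vary like the others. In the Eno1 sums that turned positive, the lowest values with 1 mouse left out were -0.95 in blood B cell-like, -1.26 in heart NK cell-like, -1.14 in heart dendritic cell-like and -1.42 in blood neutrophil-like cells. Eno1 turned positive without stroke replicate 2 in blood B cell-like (0.12), heart NK cell-like (0.09) and heart dendritic cell-like cells (0.42), and without control replicate 2 in heart NK cell-like (0.47), heart dendritic cell-like (0.02) and blood neutrophil-like cells (0.20). The cause of these changes was not tested.

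With the replicate number as a block, which only shares a number here, stroke against control gave 3 member calls and 260 gene calls: Eno1 in heart classical monocyte-like (-0.98, adjusted p = 0.017) and heart neutrophil-like cells (-1.24, adjusted p = 0.0379) and Pfkl in heart nonclassical monocyte-like cells (-1.90, adjusted p = 0.0431). Without the mouse as a block the macrophage division gave 3 member calls, and heart against blood gave 22. Of these 22, 17 were in classes and 5 in all-cell sums, against 20 and 2 with the block. One fit over both organs was not run for macrophage-like cells, since blood held too few of them. The 2 mice per group and sums of few UMIs limit what these comparisons can show.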
